A study of Mus musculus with 2 samples.

Results

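The genes described here are named for the mitochondrial ribosome, and nearly all encode its proteins. They were taken as the protein-coding genes whose symbol begins with Mrpl or Mrps followed by a digit, which gave 78 of the 32227 genes in the count tables, of which 21657 are protein-coding. There were 49 Mrpl genes, named for the large subunit, and 29 Mrps genes, named for the small subunit. The rule used no measured value, and all 78 genes had enough counts to be described.

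Mitochondria keep a small genome of their own, which codes for core subunits of the respiratory chain and of ATP synthase. The mitochondrial ribosome translates those messages. Its ribosomal RNAs come from the mitochondrial genome, but every one of its proteins is encoded in the nucleus, made in the cytosol and imported, so the subunits can be built only if nuclear and mitochondrial products are supplied together. Some of its proteins have counterparts in bacterial ribosomes, and others are found only in mitochondria. Pyrvinium is an anthelmintic cationic dye that is known to accumulate in mitochondria.

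The cells came from Meta4 organoids, a dysplastic line from the mouse stomach corpus carrying a Mist1-CreERT2 transgene in 1 copy (Tg/+), in which the Mist1 promoter drives an inducible Cre. Both groups shared this genotype and the induction of dysplasia, and they differed in the agent given for 1 day, the solvent DMSO or pyrvinium. The stated aim was to find the cells affected by the drug at a time before the organoids lose their shape. Transcripts were counted near their 3' end in single cells, in 1 library per agent.

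The DMSO library held 1602 cells with a median of 18592.5 counts each, and the pyrvinium library 854 cells with a median of 31517. Summed over cells the libraries gave 39980497 and 37046673 counts, and no kept barcode was shared by both (0). Levels are given as counts per 1000000 counts of the library (CPM), which for transcripts counted at 1 end are not divided by gene length. With 1 library per agent no test was possible and every value stands without replicate. Intervals are 95%, hold the error of counting alone, and a gene called higher or lower is so between these 2 libraries. Mitochondrially encoded genes took 2.57% of the counts with DMSO and 1.63% with pyrvinium, and cytosolic ribosomal protein genes 25.1% and 29.6%. These shares enter the scaling of every other gene. Epithelial markers summed to 8199 and 5375 CPM and were all detected, whereas the 6 immune markers summed to 0.825 and 1.24 CPM and the 6 fibroblast markers to 1.03 and 0.810 CPM. Among the 4 endothelial markers Cdh5 alone stood at 41.7 and 56.6 CPM.

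As promoters are the sequence that a set of separately located genes could share, the 300-base windows of the RefSeq promoter table (mouse build GRCm38.p6, 250 bases before and 50 after the start) were searched on both strands. The table held 69 of the 78 genes, and a gene is counted below if any of its windows holds the letters. The letters CCGGAAG, a core recognised by ETS factors such as GABP, were in 26 of the 69 genes (37.7%), against 13.2% of 16744 protein-coding genes and 9.93% of all 27025. AAGATGGC, a core bound by YY1, was in 12 genes (17.4%, against 3.60% and 3.19%), and GCATGCGC, a core bound by NRF1, was in 8 (11.6%, against 4.09% and 3.05%). The ETS, YY1 and NRF1 letters together marked 38 genes (55.1%, against 19.0% of protein-coding genes). Counted by window, 3 held both the ETS and the YY1 letters, and in 0 did they overlap. CACGTG, the E-box read by Myc and Max, was in 5 genes (7.25%, against 9.16% and 8.09%). TGATGNAA, a composite site read by ATF4, was in 0 of 69, against 3.995% and 4.51%. A match describes letters and is not a measured binding site.

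Upstream windows of 90 bases that lie outside annotated genes are shown here because they carry the letters found most often in these promoters. They run 5' to 3' on the gene's strand and end at the base before the start, on GRCm38.p6, which is not the build of the count tables. Capitals mark the ETS letters, in Mrpl52 as their reverse complement.
Mrpl52, chr14:54426819-54426908, plus strand: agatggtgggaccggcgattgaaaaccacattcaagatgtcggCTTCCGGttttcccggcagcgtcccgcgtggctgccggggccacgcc
Mrpl58, chr11:115403662-115403751, plus strand: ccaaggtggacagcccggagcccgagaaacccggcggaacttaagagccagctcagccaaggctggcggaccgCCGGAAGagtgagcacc
Mrps22, chr9:98601680-98601769, minus strand: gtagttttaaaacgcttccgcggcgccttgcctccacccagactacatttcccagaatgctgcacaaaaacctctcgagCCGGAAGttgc
Mrpl34, chr8:71464836-71464925, plus strand: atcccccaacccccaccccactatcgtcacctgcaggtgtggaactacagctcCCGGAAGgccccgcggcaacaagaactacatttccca

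For contrast, Mrpl20 carries the E-box, shown in capitals in the same kind of window.
Mrpl20, chr4:155802788-155802877, plus strand: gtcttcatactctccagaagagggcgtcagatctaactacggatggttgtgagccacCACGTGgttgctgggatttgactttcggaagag

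Ratios between the libraries were set beside these letters. The median log2 ratio of pyrvinium over DMSO was -0.21 over the 26 genes with the ETS letters and -0.10 over the table's other genes. For the YY1 letters these medians were -0.20 and -0.13, and for the NRF1 letters -0.15 and -0.14. For the E-box, found in only 5 genes, they were -0.25 and -0.13. Mrpl52 and Mrpl58, with the same ETS letters in the windows above, stood at 0.54 and -0.21.

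As a whole the mitochondrial ribosomal protein genes kept nearly the same share of the transcripts. The 78 genes summed to 11746 CPM (interval 11712 to 11779) in the DMSO library and 10978 CPM (10944 to 11012) in the pyrvinium library, or 1.17% and 1.10% of the counts, which is 1.07-fold lower. The Mrpl genes summed to 7975 and 7560 CPM, a log2 ratio of -0.08 (-0.08 to -0.07), and the Mrps genes to 3770 and 3418 CPM, a log2 ratio of -0.14 (-0.15 to -0.13). These small differences depend on the scaling. With mitochondrially encoded and cytosolic ribosomal protein genes left out of the total the Mrpl and Mrps sums had log2 ratios of -0.0041 and -0.069, and with scaling by the median of ratios 0.0089 and -0.056, so that the Mrpl sum changed sign. Among barcodes with 100 to 500 counts, taken as a profile of free RNA, the 78 genes summed to 11110 and 10841 CPM, close to their level in cells.

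Gene by gene, the median log2 ratio was -0.14 over all 78, -0.14 over Mrpl and -0.14 over Mrps genes, beside -0.08 over the 15586 genes that reached 20 counts over both libraries, called genes tested here. The middle 50% of the 78 lay between -0.29 and 0.04, a narrower span than the -0.44 to 0.24 of all genes tested, which include many genes with few counts. The counting interval lay below 0 for 48 genes, above 0 for 18 and held 0 for 12, where it lay below 0 for 33.5% and above 0 for 21.7% of all genes tested, many of which have few counts and wide intervals. A difference of at least 1.2-fold, with an interval that leaves out 1, was reached downward by 24 of the 78 genes (30.8%) and upward by 10 (12.8%), where 28.0% and 16.5% of all genes tested did so. At 1.5-fold the counts were 4 lower (5.13%) and 0 higher, where the background was 15.5% and 7.57%. At the smaller size the shares are near the background, and at the larger size they are below it. This split depends on the scaling. Without mitochondrially encoded and cytosolic ribosomal protein genes in the total, the 1.2-fold calls were 15 lower and 13 higher, beside 23.5% and 20.7% of all genes tested. With scaling by the median of ratios they were 15 and 14, beside 22.8% and 21.4%. Under both of these scalings the 1.5-fold calls were 2 lower and 4 higher, where all genes tested had 12.9% and 9.57% under the first and 12.5% and 9.996% under the second. The median of all genes tested moved up by 0.07 and 0.09.

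**Figure D1:**
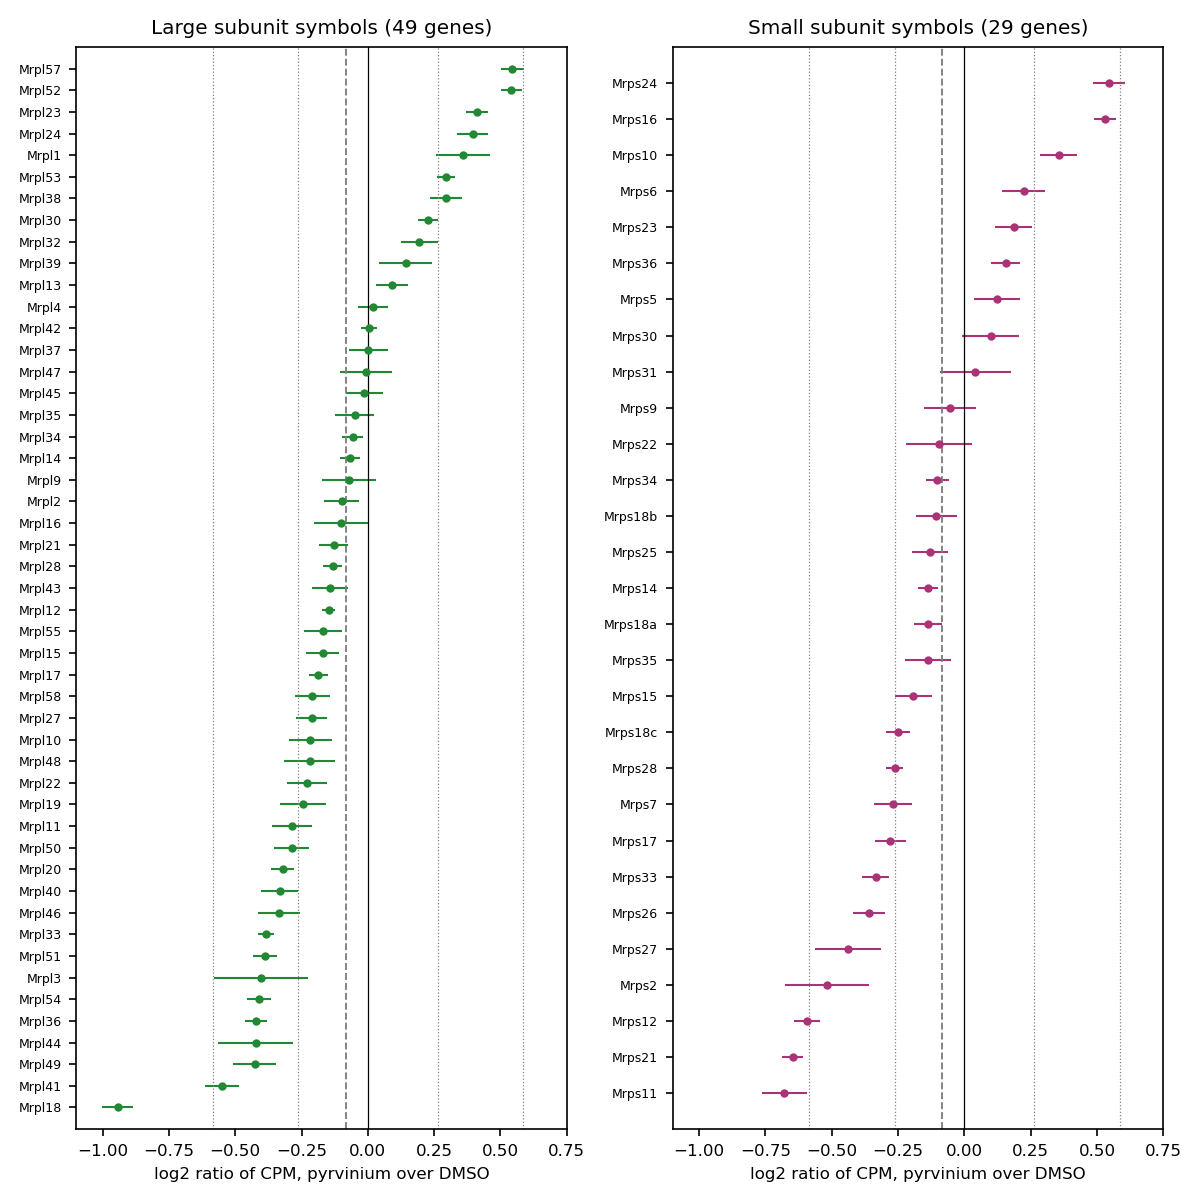
Log2 ratio of CPM, pyrvinium over DMSO (x axis), for the 49 Mrpl genes (left) and the 29 Mrps genes (right), 1 row per gene. Points are ratios of the summed cells, bars are 95% counting intervals, the dashed line is the median of all genes tested and dotted lines mark 1.2-fold and 1.5-fold. Mrpl18 at -0.94 stands apart below the other Mrpl genes, and no gene lies beyond 1.5-fold on the upper side.

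The genes spanned a wide range of levels, and their order was nearly the same in both libraries (Spearman 0.96 over 78 genes, a description, since the genes share the libraries). The level did not order the ratios (Spearman -0.06). Mrpl12, the stalk protein that recruits translation factors, had the most counts, at 690 and 623 CPM (log2 ratio -0.15). Mrpl33, a small protein with a bacterial counterpart, followed at 535 and 410 CPM (-0.38). Its 3' end lies inside Rbks on the opposite strand, and the strand used for counting is not stated, so its counts could include reads of Rbks, itself at 10.4 and 5.10 CPM. Mrps28 stood at 446 and 372 CPM (-0.26) and Mrpl42, a mitochondria-specific protein, at 437 and 438 CPM (0.00).

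At the other end, Mrpl3, the homologue of a bacterial protein near the peptidyl transferase centre, was at 15.9 and 12.1 CPM (-0.40). Mrps2 was at 20.8 and 14.5 CPM (-0.52), Mrps31 at 23.5 and 24.2 CPM (0.04), and Mrpl44, which has a ribonuclease-like fold, at 25.4 and 18.9 CPM (-0.42). The interval of Mrps31 holds 0. The lower level of Mrpl3 was not the same under every setting. Its log2 ratio was -0.062 (-0.27 to 0.15) with equal weights for the 4 cell clusters found in both libraries. Across these clusters it ranged from -0.86 to 0.47, on few counts. Without a further cluster of nearly only DMSO cells it was -0.55. The part of the mix of cells was not tested.

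**Figure D2:**
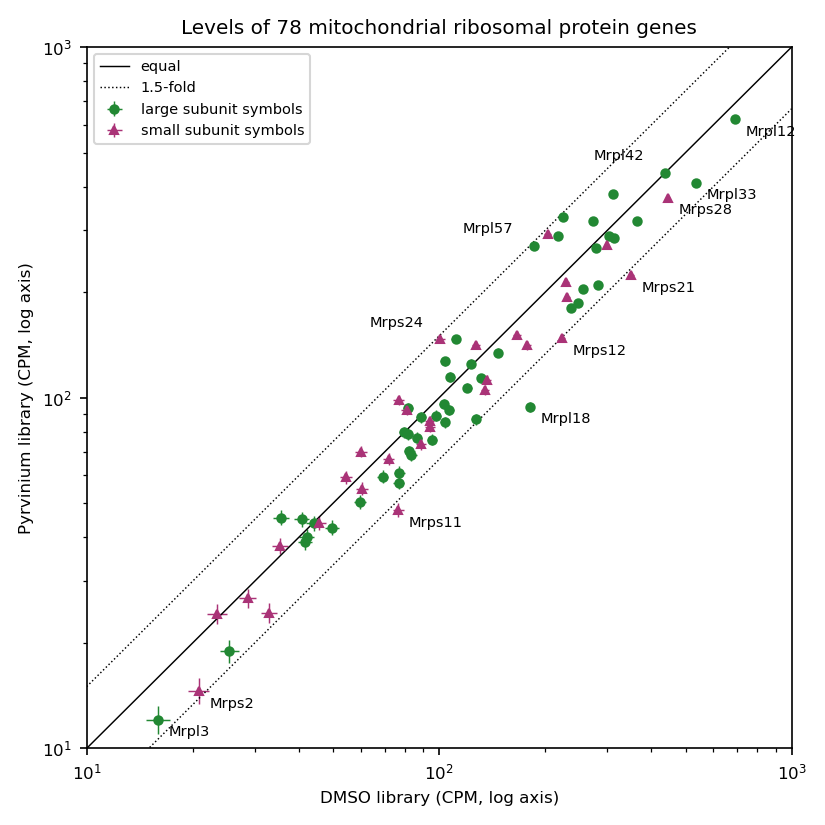
Level of each of the 78 genes with DMSO (x axis) and with pyrvinium (y axis), in CPM on log axes, with 95% Poisson intervals. The solid line marks equal levels and the dotted lines 1.5-fold. The genes follow the line from Mrpl3 at 15.9 and 12.1 CPM to Mrpl12 at 690 and 623 CPM, with Mrpl18 below it.

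Among the 49 large subunit genes, Mrpl18 alone was past 1.5-fold (2.04%). Of all genes tested, 15.5% were lower by that size. Mrpl18 (ENSMUSG00000057388), a central protuberance protein whose bacterial homologue binds 5S ribosomal RNA, was at 181 CPM (177 to 185) in the DMSO library and 94.3 CPM (91.2 to 97.4) in the other, 1.92-fold lower (log2 ratio -0.94, -1.001 to -0.88). This was the lowest ratio of all 78 genes. Its start lies within 1000 bases of that of Tcp1, a chaperonin gene on the opposite strand of chromosome 17, which was at 189 and 150 CPM (-0.33). The genes share 645 bases, and the 3' end of Mrpl18 lies outside Tcp1.

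Mrpl41, a mitochondria-specific protein, was at 127 and 86.7 CPM (-0.55, -0.61 to -0.49). Mrpl36, a short protein with a bacterial counterpart, was at 282 and 210 CPM (-0.42), and Mrpl54, again mitochondria-specific, at 248 and 187 CPM (-0.41). These were at least 1.2-fold lower and short of 1.5-fold.

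The genes higher with pyrvinium were mixed in kind. Mrpl57, a mitochondria-specific protein, was at 186 and 271 CPM (0.55, 0.50 to 0.59), which is 1.46-fold higher. Mrpl52, also mitochondria-specific, was at 225 and 327 CPM (0.54, 0.50 to 0.58). Mrpl23, whose bacterial homologue lines the exit of the peptide tunnel, was at 217 and 289 CPM (0.41), but its log2 ratio was 0.24, short of 1.2-fold, with equal weights for the shared clusters and 0.03 in the cells of 1 of them, cluster 3. Mrpl24, its neighbour at the tunnel in bacteria, was at 112 and 147 CPM (0.39), but its 3' end lies inside Rrnad1 on the opposite strand (7.15 and 4.16 CPM). In cluster 3 the log2 ratio of Mrpl24 was 0.04 (-0.15 to 0.22). Mrpl53 was at 311 and 382 CPM (0.29), and it was short of 1.2-fold at 0.18 with equal weights for the shared clusters, 0.20 without cluster 4, a cluster with only 1 pyrvinium cell, and 0.25 in cells matched for counts. In all, 14 Mrpl genes (28.6%) were at least 1.2-fold lower and 7 (14.3%) at least 1.2-fold higher, near the 28.0% and 16.5% of all genes tested.

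Parts of the large subunit that work together had unlike ratios, most of them small. Of the stalk and its base, Mrpl11 was at 83.5 and 68.5 CPM (-0.28) and Mrpl10 at 69.2 and 59.5 CPM (-0.22), beside -0.15 for Mrpl12. Mrpl45, which ties the subunit to the inner membrane beside the tunnel exit, was at 88.6 and 87.8 CPM (-0.01), with an interval that holds 0. Mrpl58, which descends from a release factor and frees peptides from stalled ribosomes, was at 107 and 92.4 CPM (-0.21).

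In the small subunit, 3 of 29 genes (10.3%) were at least 1.5-fold lower, all with bacterial counterparts. The share of all genes tested was 15.5%. Mrps11 (ENSMUSG00000030611), a protein of the platform, stood at 76.6 CPM (73.9 to 79.3) and 47.8 CPM (45.6 to 50.1) in the DMSO and the pyrvinium library, a log2 ratio of -0.68 (-0.76 to -0.59). Mrps21 (ENSMUSG00000054312) was at 350 CPM (344 to 356) and 224 CPM (219 to 228), a log2 ratio of -0.65 (-0.69 to -0.61). Mrps12 (ENSMUSG00000045948), a protein of the decoding centre, was at 223 CPM (218 to 228) and 148 CPM (144 to 152), a log2 ratio of -0.59 (-0.64 to -0.55). Mrps12 is just past 1.5-fold and Mrpl41, the next gene, is just short of it. Mrps21 and Mrps12 were short of 1.5-fold under 3 other settings. Without mitochondrially encoded and cytosolic ribosomal protein genes in the total their log2 ratios were -0.57 and -0.52, by the median of ratios -0.56 and -0.51, and with equal weights for the shared clusters -0.54 and -0.57.

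Opposite to these, Mrps24 (ENSMUSG00000020477), placed at the entry of the messenger RNA, was at 101 and 147 CPM (0.54, 0.49 to 0.60). Mrps16, a bacterial-type protein, was at 203 and 293 CPM (0.53, 0.49 to 0.57) and Mrps10, of the subunit's head, at 76.9 and 98.4 CPM (0.36). These were the 3 Mrps genes (10.3%) at least 1.2-fold higher, against 10 (34.5%) at least 1.2-fold lower, beside 16.5% and 28.0% of all genes tested. Genes of bacterial type thus took both ends of the small subunit, while the 12 Mrps genes classed as mitochondria-specific stayed between -0.44 and 0.19. This class holds Mrps18a, Mrps18b and Mrps30, described below, none of which sets either end of that range. Over both subunits the median was -0.14 for the 46 genes of bacterial type and -0.14 for the 31 mitochondria-specific ones.

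Other small subunit genes with known roles stood between these ends. Mrps7, which starts assembly of the head in bacteria, was at 88.8 and 73.7 CPM (-0.27), with its 3' end inside Mif4gd (23.6 and 14.9 CPM). Mrps27, a pentatricopeptide repeat protein, was at 32.9 and 24.3 CPM (-0.44). Mrps34, needed for a stable subunit, was at 229 and 213 CPM (-0.10), and it overlaps Mapk8ip3 (15.8 and 13.6 CPM) on the opposite strand. Mrps5, a protein of the decoding region, was at 54.4 and 59.3 CPM (0.12).

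Mammals have 3 relatives of a single bacterial protein, and they were not alike in level. Mrps18c was at 231 and 194 CPM (-0.25), Mrps18a at 166 and 151 CPM (-0.14) and Mrps18b at 71.9 and 66.8 CPM (-0.11). Mrps18a, whose 3' end lies inside Rsph9, and Mrps30 are built into the large subunit despite their names. Mrps30 was at 35.3 and 37.8 CPM (0.10), with an interval that holds 0. Moving both to the large subunit left the summed log2 ratios at -0.08 for large and -0.14 for small. Mrps36, at 127 and 142 CPM (0.16), encodes a protein now known as a part of the oxoglutarate dehydrogenase complex. It is in neither the bacterial nor the mitochondria-specific class, but it is kept in all Mrps counts and sums.

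The counts per cell had a narrower spread in the pyrvinium library as a whole. With each cell thinned at random to 5000 counts, which all cells reached, the 78 genes together gave a median of 57 counts per DMSO cell (quartiles 44.25 and 69) and 54 per pyrvinium cell (48 and 61). The medians were close, but the 5th and 95th percentiles lay at 28 and 84 counts in DMSO cells and at 38 and 71 in pyrvinium cells. The variance over the mean, which is near 1 when cells differ by counting alone, was 5.25 with DMSO and 1.97 with pyrvinium. Within single cell clusters, which are described next, it was 2.31 to 2.76 with DMSO and 1.72 to 2.24 with pyrvinium. Over each whole library it was, for Mrpl genes, 3.95 and 1.73, and for Mrps genes 2.44 and 1.30. Unthinned, the summed level was higher in deeper cells of the DMSO library, from 10796 CPM in the 401 cells with the fewest counts to 12161 CPM in the 401 cells with the most. In the pyrvinium library the same 4 depth classes lay between 10659 and 11234 CPM.

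**Figure D3:**
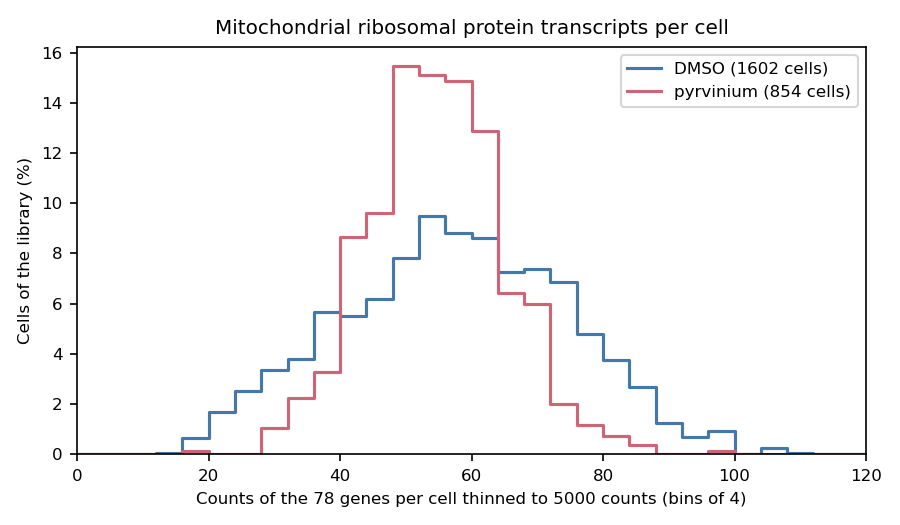
Counts of the 78 genes per cell after thinning to 5000 counts (x axis, bins of 4) against the share of the library's cells in percent (y axis), 1 line per library. The DMSO line is low and broad, with its 5th and 95th percentiles at 28 and 84, and the pyrvinium line is high and narrow, with 38 and 71.

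Levels also differed between cell clusters. Cells were clustered on other genes, without the 78 genes and without mitochondrially encoded and cytosolic ribosomal protein genes, and the clusters are called by number. Leading genes were ranked with the cells of both libraries pooled. In a cluster with cells mostly of 1 library they can therefore follow that library. Cluster 0 (619 DMSO and 160 pyrvinium cells), led by the mitotic genes Pimreg, Kif22, Plk1 and Ccnb1, had the highest level, 13937 CPM with DMSO and 11609 with pyrvinium. Cluster 1 (116 and 441 cells), led by Dusp4, Kif13a and the stress genes Ddit3 and Gdf15, was at 11110 and 10749 CPM. Over the whole libraries Ddit3 was at 39.1 and 311 CPM, and whether the DMSO cells of cluster 1 are high in it was not examined. Cluster 2 (244 and 177 cells), led by Lcn2, Creb3l4 and Cp, was at 11635 and 11043 CPM. Cluster 3 (309 and 75 cells), led by Krt4, Mxd4 and Apoc2, was at 11401 and 10827 CPM. Cluster 4 (314 DMSO cells and 1 pyrvinium cell), with Cited1, Lims2 and AA467197 among its leading genes, was at 7282 CPM, below every other cluster of either library.

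Scaled to all counts, the sum was lower with pyrvinium within each of the 4 shared clusters. The log2 ratio was -0.26 in cluster 0, -0.05 in cluster 1, -0.08 in cluster 2 and -0.07 in cluster 3. Cytosolic ribosomal protein genes took 24.7% (DMSO) and 27.9% (pyrvinium) of the counts in cluster 0 and 27.5% and 31.0% in cluster 1. They took 25.3% and 29.6% in cluster 2 and 23.8% and 24.9% in cluster 3. These shares enter the scaling, and no other scaling is given for the clusters. The small differences in clusters 1, 2 and 3 may depend on it. The gene medians were -0.26, -0.08, -0.09 and -0.06, beside -0.02, -0.13, 0.00 and 0.01 over all genes tested there. In cluster 0 the lower level was seen for Mrpl genes (9451 to 7866 CPM) and Mrps genes (4486 to 3743 CPM). The S phase list of 16 replication genes summed in cluster 0 to 1282 CPM with DMSO and 742 with pyrvinium, and to 241 CPM in cluster 4. The pyrvinium cells of clusters 1 and 2 had about as little of it, 242 and 249 CPM, but more of the 78 genes (10749 and 11043 CPM). The part of this list in their level was not tested.

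**Figure D4:**
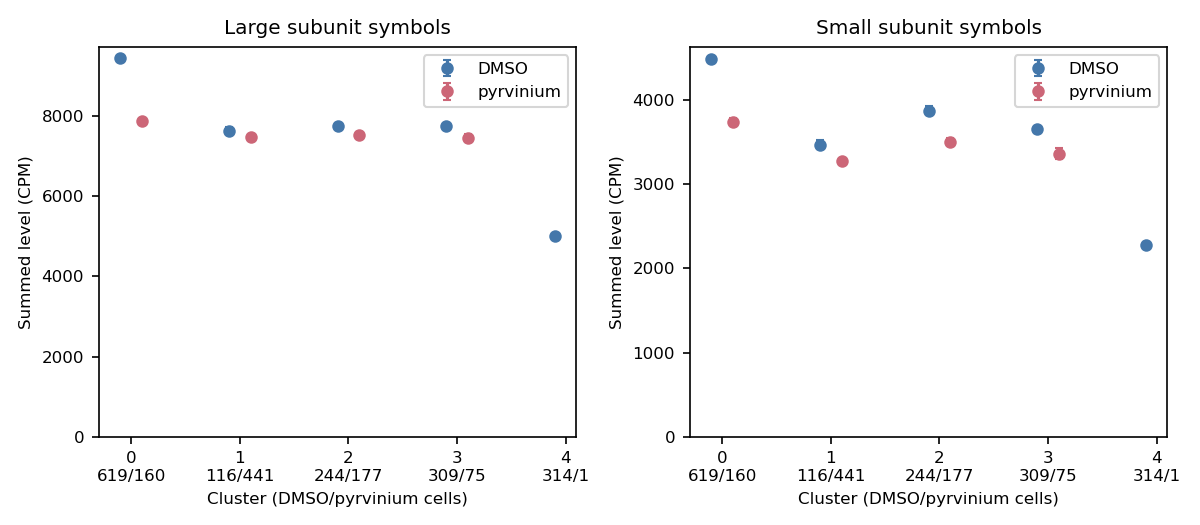
Summed level in CPM (y axis) of the Mrpl genes (left) and Mrps genes (right) in each cell cluster (x axis, with the number of DMSO and pyrvinium cells), blue for DMSO and red for pyrvinium, with 95% Poisson intervals. Cluster 0 is highest and the DMSO cells of cluster 4 are lowest, at 5007 CPM for Mrpl and 2275 CPM for Mrps genes. The single pyrvinium cell of cluster 4 is not drawn.

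The DMSO cells of cluster 4 were set against the other DMSO cells, as a description, since the clusters were drawn from the same cells. The 78 genes summed to 7282 CPM in cluster 4 and 12698 CPM in the other cells, 1.74-fold lower. At 1.2-fold, 70 of the 78 were lower and 1 was higher, where 33.9% and 16.8% of the 13989 genes tested in this comparison were. The median log2 ratio was -0.84, beside -0.23 over all genes tested and 0.02 over cytosolic ribosomal protein genes. Median depth was 16813 counts per cell, against 18592.5 over the whole DMSO library. Thinned to 5000 counts, these cells had a median of 35 counts of the 78 genes, and DMSO cells of the other clusters 52 to 69.

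Both subunits took part, with 43 of 49 Mrpl and 27 of 29 Mrps genes at least 1.2-fold lower in cluster 4. Mrps28 was at 503 CPM in other DMSO cells and 180 CPM in cluster 4 (log2 ratio -1.48). Mrpl12 was at 773 and 302 CPM (-1.35), and Mrps11 at 87.9 and 23.2 CPM (-1.92). Mrpl24 was the gene that was higher, at 102 and 156 CPM (0.61), within the limit on its counts given above, and Mrpl45 was at 88.8 and 87.9 CPM (-0.01). Cluster 4 held 1 pyrvinium cell, so nearly all its cells enter the DMSO side of the comparison. With its cells left out, a setting chosen after seeing the data, the 1.2-fold calls were 39 lower and 8 higher, where 30.5% and 17.6% of the 15301 genes tested were. The 1.5-fold calls were 7 lower and 0 higher, where 17.5% and 8.75% were. The median log2 ratio of the 78 was then -0.26, beside -0.10 over all genes tested.

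Some genes had the same direction in every shared cluster. The interval lay below 0 in all 4 for 10 genes, Mrpl17, Mrpl18, Mrpl33, Mrpl36, Mrpl54, Mrps11, Mrps12, Mrps18c, Mrps21 and Mrps28, and above 0 in all 4 for 6, Mrpl1, Mrpl52, Mrpl57, Mrps10, Mrps16 and Mrps24. Of the 10766 genes with at least 20 counts in each of these clusters, 6.15% lay below 0 and 5.39% above 0 in all 4. These include genes with far fewer counts than most Mrpl and Mrps genes, and fewer counts give wider intervals. The shares were not matched for counts, so they cannot show whether Mrpl and Mrps genes keep their direction more often than others. Mrpl18 had ratios from -0.93 to -0.36 across the clusters. In cluster 2 it was at 176 and 92.0 CPM, and in cluster 3 at 158 and 123 CPM. Mrpl57 ranged from 0.30 to 0.53 and Mrps24 from 0.29 to 0.65. Another 6 genes had intervals on both sides of 0, as did 6.62% of the 10766, again without matching for counts. Mrpl42 is 1 of the 6 and had nearly equal totals but 551 and 470 CPM in cluster 0 and 342 and 441 CPM in cluster 1.

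Proteins of the same ribosome that do not bear the Mrpl or Mrps name had a median log2 ratio of -0.14 (5 genes). Dap3, a GTP-binding small subunit protein, was at 59.3 and 65.8 CPM (0.15) and Chchd1 at 311 and 371 CPM (0.26). Ptcd3, a small subunit pentatricopeptide protein, was at 23.0 and 13.5 CPM (-0.77), Gadd45gip1 at 334 and 266 CPM (-0.33) and Aurkaip1 at 191 and 173 CPM (-0.14). Assembly and ribosomal RNA modification factors (26 genes) had a median of -0.21, with 11 below and 2 above by 1.2-fold or more. For this list and those below, the shares of all genes tested were 28.0% lower and 16.5% higher at that size. Mettl15, a methyltransferase of the small subunit RNA, was at 17.9 and 38.5 CPM (1.11), the highest ratio of that list. Trub2, a pseudouridine synthase, was at 10.4 and 6.10 CPM (-0.77) and the RNA methyltransferase gene Mrm3 at 10.9 and 6.51 CPM (-0.75).

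Mitochondrial translation factors (16 genes) split evenly at 1.2-fold, 4 lower and 4 higher, around a median of -0.18. The elongation factor gene Tufm was at 99.9 and 80.1 CPM (-0.32) and its exchange factor Tsfm at 101 and 85.5 CPM (-0.24). Oxa1l, the insertase at the tunnel exit, was at 22.9 and 31.1 CPM (0.44) and the messenger RNA binding Lrpprc at 19.7 and 24.2 CPM (0.29), while its partner Slirp was at 185 and 147 CPM (-0.33). Transcription and upkeep of the mitochondrial genome (16 genes) had 9 genes lower and 2 higher by that size, with a median of -0.33. Tfam, which packages that genome, was at 26.3 and 16.8 CPM (-0.65), and the protease gene Lonp1 at 51.4 and 70.6 CPM (0.46).

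The messages that this ribosome translates had a wider spread of ratios than those of its own proteins. Of the 13 mitochondrially encoded messenger RNAs, 8 were lower and 2 higher by 1.2-fold or more. Their median was -0.43, and they summed to a level of 25719 and 16349 CPM. Mt-Atp6 was at 8580 and 3649 CPM (-1.23), mt-Cytb at 2819 and 1351 CPM (-1.06) and mt-Co1 at 218 and 439 CPM (1.01). Import genes (18) had 7 lower and 2 higher, with a median of -0.16. Among them were Tomm5 at 406 and 259 CPM (-0.65) and the matrix chaperone gene Hspa9 at 189 and 291 CPM (0.63). Cytosolic ribosomal protein genes had a median of 0.25 over 79 tested, with 38 at least 1.2-fold higher and 0 lower. In the S phase list 15 of 16 genes were lower by that size (median -1.30), as were 15 of 16 genes of the later cell cycle up to mitosis (median -0.85).

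**Figure D5:**
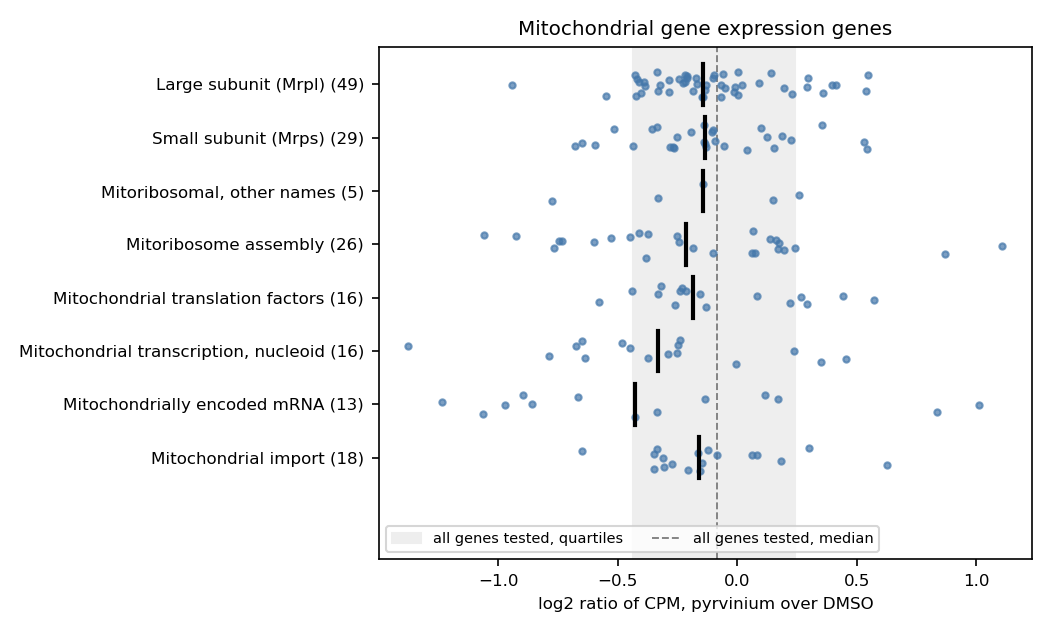
Log2 ratio of CPM, pyrvinium over DMSO (x axis), of single genes (points, spread at random within a row) in the Mrpl and Mrps genes and in 6 companion lists (number of genes in brackets). Black bars are medians, the grey band holds the middle 50% of all genes tested and the dashed line is their median. The Mrpl and Mrps points lie between -0.94 and 0.55, while mitochondrially encoded messenger RNAs spread from -1.23 to 1.01.

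Regulators of mitochondrial gene expression (12 genes) had 6 lower and 4 higher by 1.2-fold or more, with a median of -0.18. Myc was at 66.6 and 30.6 CPM (-1.12) and Max at 40.3 and 26.9 CPM (-0.58). Atf5, a factor of the mitochondrial stress response, was at 9.65 and 39.6 CPM (2.04) and Atf4 at 132 and 244 CPM (0.88). These transcript levels say nothing of the activity of the proteins.

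Many of the genes start close to a gene on the opposite strand, and in some of these pairs, such as Mrpl18 and Tcp1, the genes overlap. In the GENCODE annotation of GRCm38, used for neighbours only, 33 of the 78 have a protein-coding gene on the opposite strand that starts within 1000 bases. Of the 31 pairs with a tested partner, 18 had ratios on the same side of 0, 17 with both below and 1 with both above. The other pairs had opposite signs. Ratios below 0 were common in general, in 55 of the 78 genes and in 8853 of the 15586 genes tested. The count of pairs with both below therefore does not show that paired genes move together. The partners had a median of -0.21, and the ratios of the pairs had a Spearman coefficient of -0.18 over 31 pairs, a description in which Mrps11 and Mrpl46 enter both ways. Mrpl36 (-0.42) starts beside Ndufs6, a complex I gene at 561 and 606 CPM (0.11). Mrpl49 (-0.43) starts beside Fau, a cytosolic ribosomal protein gene at 2014 and 2213 CPM (0.14). In all, 14 of the 78 have their 3' end inside a gene of the opposite strand, 9 of them in a gene with at least 1 CPM. The 9 are Mrpl19, Mrpl24, Mrpl33, Mrpl47, Mrpl49, Mrps7, Mrps18a, Mrps25 and Mrps34, and the others are Mrpl3, Mrpl10, Mrpl17, Mrpl40 and Mrps18b. Their values are uncertain to that extent.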

How the data were processed

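Single-cell RNA was captured near the 3' end with PIPseq and the T2 kit, per the labels' protocols. The deposited matrices hold whole-number counts per gene and barcode, not normalized by the authors. Partek and GRCm39 were used, per the submitters' processing notes, while the aligner, counter, counting strand, annotation and any barcode filter were not named in the sources used here. It is unknown if molecules or reads were counted, and intervals hold only the error of counting.

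Barcodes with at least 9320 (DMSO) or 13100 (pyrvinium) counts, which is the 99th percentile over the 2000 deepest barcodes divided by 10, at least 500 genes and at most 20% mitochondrial counts were kept. The mitochondrial limit removed 0. Doublets were kept in the main setting. Counts were summed per library and scaled to CPM, with exact Poisson 95% intervals for levels and exact conditional binomial 95% intervals for ratios. Genes with at least 20 counts in both libraries together were tested against the sizes of 1.2-fold and 1.5-fold, which is a size rule and no statistical test. For clusters, 2000 variable genes were taken as log values per 10000 counts, z-scored in each library separately, and used with 30 principal components, 15 neighbours and the Leiden algorithm at resolution 0.5 (scanpy 1.11.5, leidenalg 0.10.2, Python 3.11.15, numpy 2.4.6, scipy 1.17.1). The ratio computation was tested on simulated data.

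The 36 genes named by rule are those past 1.5-fold, the 8 highest and 8 lowest by the interval bound nearest 0 with at least 20 CPM in a library, the 4 with the most and 4 with the fewest DMSO counts, and a set chosen by role. Other members and the neighbouring genes were named after their values, positions or sequences were seen. Of companion lists, up to 4 genes with the largest ratios and at least 10 CPM may be named, and all of 2 lists. The members, lists and tests were chosen with earlier results of these data known. A further allele given in the genotype and 1 leading gene of a cell cluster are not reported here.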

Additional observations from a re-analysis of the deposited data

How the results depend on the processing

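No paired analysis was possible because each agent has 1 library. Besides 15 planned settings, leaving out cluster 4 was chosen after seeing the data. Of the values of the whole set and of each subunit, 88 stayed near the main value, and 38 moved further and are given here. Near means within the counting interval for sums, the quartiles for counts per cell and 1.5 times for numbers of genes. For medians it means the counting interval of a gene at the median, which is not an interval of the median itself. The sum of Mrpl genes changed sign by the median of ratios. Median log2 ratios of all, Mrpl and Mrps genes went to -0.064, -0.069 and -0.063 with mitochondrial and ribosomal protein genes kept out of the scaling, to -0.051, -0.056 and -0.050 by the median of ratios, and to -0.26, -0.26 and -0.23 without cluster 4. The Mrps median went to -0.091 at a threshold of 1000 counts and to -0.092 as a mean over cells. Genes at least 1.2-fold lower numbered 15 under each scaling and 39 without cluster 4. At 1.5-fold, 4 were higher under each scaling, and the lower ones numbered 2 under each scaling, 2 with equal weights for the shared clusters and 7 without cluster 4.

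Summed log2 ratios of Mrpl and Mrps genes were -0.049 and -0.11 at 1000 counts, -0.053 and -0.12 at 3000 counts and -0.053 and -0.11 as a mean over cells. They were -0.0041 and -0.069 with mitochondrial and ribosomal protein genes kept out of the scaling, and 0.0089 and -0.056 by the median of ratios. Subtracting 10% of the RNA profile of barcodes at 10 to 100 counts gave -0.069 and -0.15. Cells matched for their range of counts gave -0.11 and -0.16, equal weights for the shared clusters -0.10 and -0.16, and the cells outside cluster 4 -0.19 and -0.26. The cause was not tested. Of the named genes, Mrpl3, Mrpl11, Mrpl23, Mrpl53, Mrps7 and Mrps28 went below 1.2-fold under 1 to 7 settings. Without cluster 4, Mrps31 went from 0.04 to -0.06 and Mrpl42 from 0.00 to -0.14. Depth limits the scarcest genes most, such as Mrpl3 with 637 and 447 counts.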
